A study of Saccharomyces cerevisiae with 8 samples.

Results

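Gcn4 is the activator that drives genes of amino acid synthesis in budding yeast, and the 43 genes described here are GCN4, PCL5 and the genes of 6 groups of biosynthetic enzymes (arginine, histidine, lysine, aromatic, branched-chain and aspartate family) in nascent transcription profiles of mutants that lack chromatin assembly factor I (CAF-I). They were chosen by name: 47 gene names were looked up among the 5498 features of the tables that hold the open-reading-frame transcripts (ORF-Ts), and 43 were found. CPA1, HIS6, SER1 and SER3 were not analysed here. No measured value was used to choose them, but the list was drawn up with earlier results of these data known. The profiles came from NET-seq, native elongating transcript sequencing. It sequences RNA that was isolated together with RNA polymerase II through a tagged subunit, so that reads on a gene count polymerases in the act of transcription more than stable mRNA.

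The 8 libraries formed 4 groups of 2 biological replicates: cac1Δ (strain YSB3062), cac2Δ (YSB3063), cac3Δ (YSB3064) and wild type (YSC0001). All 4 groups carried Rpb3-FLAG, the tagged polymerase subunit, and were collected in mid-log growth in the rich medium YPD; the labels name no starvation for amino acids. The deleted genes CAC1, CAC2 and CAC3 code for the 3 proteins of CAF-I, the chaperone that places histones H3 and H4 on newly copied DNA. Strain numbers in the labels set the wild type apart from the mutants, whose numbers follow on from each other, so any difference of strain and the mutation itself cannot be told apart where a mutant is compared with wild type. The libraries held 1959549 and 4679697 feature reads (cac1), 2275416 and 3720649 (cac2), 7117979 and 6604240 (cac3), and 1880299 and 7705151 (wild type).

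Amino acid shortage activates the kinase Gcn2, which lets ribosomes pass the small upstream reading frames of the GCN4 mRNA and make Gcn4 protein. Gcn4 then binds the promoters of its target genes, and among them is PCL5. Pcl5 is a cyclin that, with the kinase Pho85, marks Gcn4 for destruction, so the target limits its own activator. In rich medium Gcn4 protein is known to be scarce, and many of the enzymes are transcribed at a basal rate.

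Levels below are RPKM, reads divided by the length of the feature and by the scaled total of ORF-T reads of the library. Changes are log2 differences of feature reads between a mutant, or the mean of the 3 mutants, and wild type, each with its standard error (SE). Unless a sentence names another test or setting, "rose" and "fell" mean an adjusted p below 0.05 in the edgeR quasi-likelihood test. For feature reads the p was adjusted over all 7271 features tested. For the windows and the balance of gene and window, both described below, it was adjusted over the 5496 tested in each of those fits. Coordinates are those of the deposited tables; the build they refer to is not given. Each group had only 2 libraries. The spread behind each p was pooled over the 4 groups (4 residual degrees of freedom) and drawn towards that of the other features (prior of 6.70 degrees of freedom).

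Several facts of the series touch every result. Reads on the deleted genes were lower in their own mutant: RLF2, the gene for Cac1, stood at 17.1 ± 0.471 RPKM in cac1 against 47.5 ± 1.30 in wild type, CAC2 at 24.6 ± 0.563 in cac2 against 75.9 ± 7.03, and MSI1, the gene for Cac3, at 40.0 ± 3.85 in cac3 against 89.5 ± 2.36 (mean ± SD, n = 2). The first wild-type library had 126 windows and 40 features without a read, against 1 to 19 windows and 4 to 12 features in the other 7 libraries, among them a cac1 library of almost the same depth. Changes also followed the level of a gene: among the 1293 ORF-Ts with the lowest levels the median change in the mean of the 3 mutants was 0.13 on the log2 scale and 23.7% rose, and among the 1293 with the highest it was -0.08 and 21.8% fell.

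Nascent reads on the amino acid genes were lower in the CAF-I mutants. In the mean of the 3 mutants 19 of the 43 genes fell and none rose, where 9.11% of the 5171 ORF-Ts fell and 10.6% rose. At an unadjusted p below 0.05 there were 22 falls and 0 rises, and the DESeq2 Wald test called 14 falls and 0 rises. ILV1, with the smallest called change, fell by 12.04% and PCL5, with the largest, fell by 37.79%. Over all 43 genes the median change was -0.18, against -0.00 over ORF-Ts, and 39 of the 43 changes were below 0. In 19 genes all 6 mutant libraries lay below both wild-type libraries, which 15.8% of ORF-Ts did, and 18 of these 19 were among the called genes. In no gene did all 6 lie above both, which 15.9% of ORF-Ts did. The genes together took 1.698% ± 0.045 of all feature reads in cac1, 1.615% ± 0.010 in cac2 and 1.636% ± 0.0023 in cac3, against 1.743% ± 0.0084 in wild type (mean ± SD, n = 2). The count of falls rested heavily on the second wild-type library: without it 5 genes fell (ARO1, HIS4, HOM2, ILV2 and PCL5), with 61 ORF-Ts lower and 75 higher. Without the first wild-type library 13 genes fell.

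**Figure D1:**
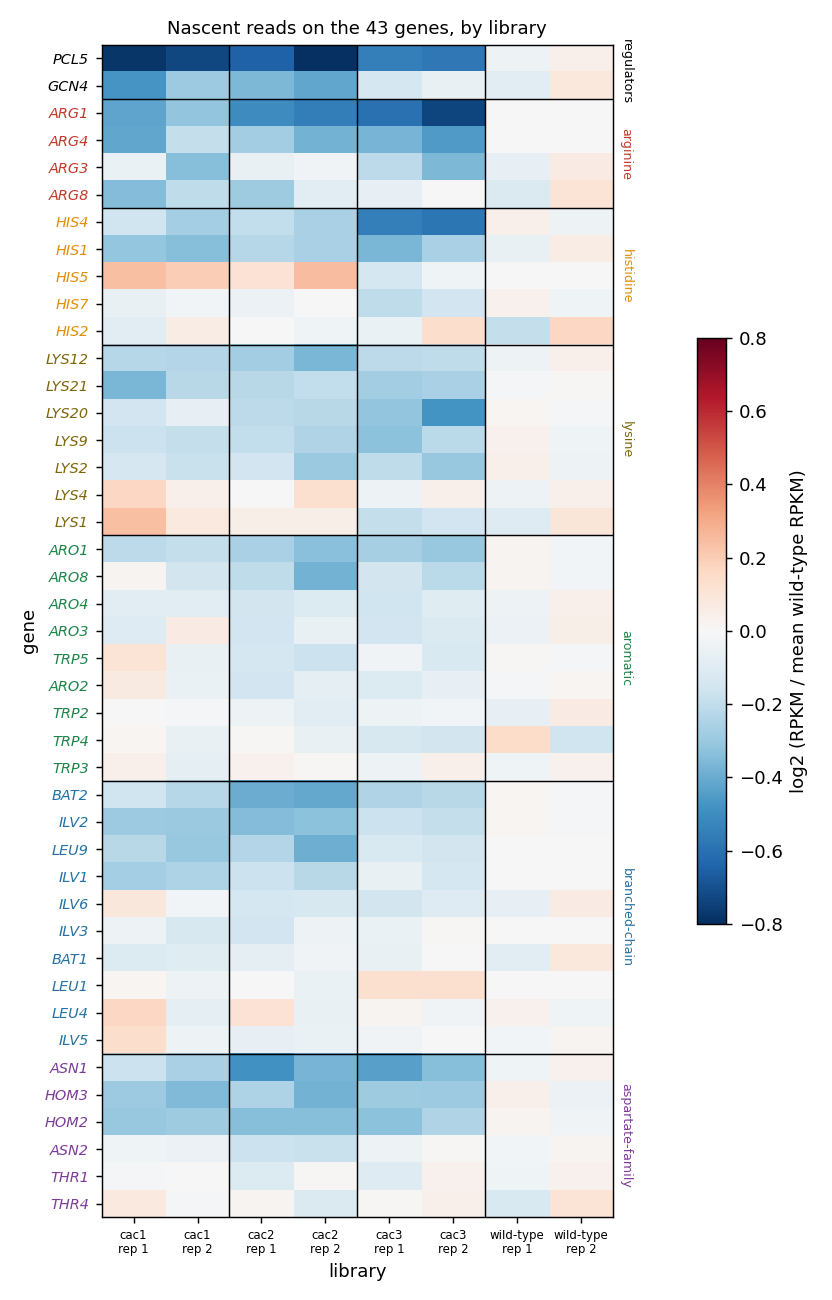
Heat map of feature reads on the 43 genes (rows, by pathway) in the 8 libraries (columns, replicates 1 and 2 of cac1, cac2, cac3 and wild type); colour is log2 of the RPKM over the mean wild-type RPKM, blue for lower and red for higher. Blue runs through all 6 mutant columns in PCL5, ARG1, ARG4, HIS1, HIS4, ARO1, HOM2 and HOM3, while rows such as TRP3 and THR4 stay pale.

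The genes are mostly transcribed at high levels, and over all ORF-Ts the change moved with the level. Their mean level over the 8 libraries ran from 10.6 RPKM for ARG3 to 1669 RPKM for ILV5, with a median of 199 RPKM, against 75.8 RPKM over ORF-Ts. When the ORF-Ts were split by level into 4 bins of like size, the highest bin (131.8 RPKM and above) held 31 of the 43. Of those 31, 14 fell, with a median change of -0.12, beside 21.8% and -0.08 for all ORF-Ts of the bin. In the next bin down 3 of 7 fell, where 7.35% of ORF-Ts did, and in the bin below that 2 of 4, where 5.41% did. The only gene in the lowest bin, ARG3, did not pass. Among the 43 genes themselves the change did not follow the level: Spearman's rho was 0.0143 over genes, which share libraries and are not independent, and the medians from the lowest bin to the highest were -0.21, -0.15, -0.19 and -0.12. The part of the level in the count of falls was not tested.

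**Figure D2:**
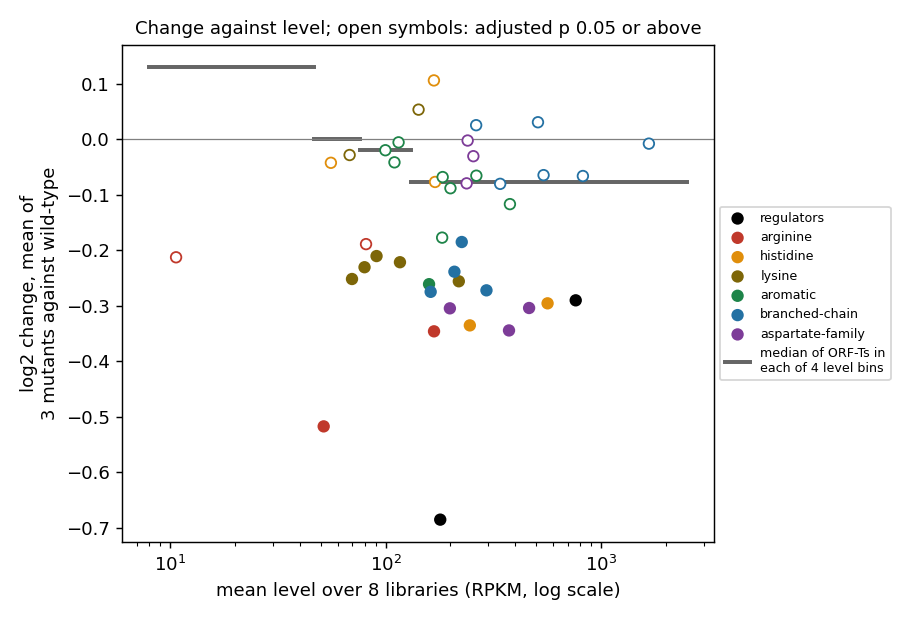
Log2 change in the mean of the 3 mutants against wild type (vertical axis) by mean level over 8 libraries in RPKM (horizontal, log scale) for the 43 genes, coloured by pathway and filled where they fell at an adjusted p below 0.05. Grey bars are the medians of all ORF-Ts in each of 4 level bins, from 0.13 in the lowest to -0.08 in the highest; most of the filled symbols lie between -0.19 and -0.35, with ARG1 and PCL5 lower.

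Of the activator and its cyclin, PCL5 had the largest change of the 43 genes and GCN4 a smaller one than several enzyme genes. PCL5 (YHR071W, chromosome VIII, 236625 to 237697, plus strand) had 145 and 150.5 RPKM in cac1, 159 and 142 RPKM in cac2 and 171 and 168 RPKM in cac3, against 243 and 256 RPKM in wild type. Every mutant library was below both wild-type libraries, with a gap wider than the spread inside any group. The change was -0.68 (SE 0.06, adjusted p = 8.23e-05) in the mean of the 3 mutants, and by mutant it was -0.75 in cac1 (adjusted p = 0.000229), -0.74 in cac2 (adjusted p = 0.000276) and -0.56 in cac3 (adjusted p = 0.00225). GCN4 itself (YEL009C, chromosome V, 138829 to 140365, minus strand) had 634 and 719.6 RPKM in cac1, 687 and 660.0 RPKM in cac2 and 800.4 and 844 RPKM in cac3, against 828 and 934 RPKM in wild type. Here the cac1 and cac2 libraries were all below wild type, and the cac3 libraries overlapped the wild-type range. GCN4 fell by 0.29 on the log2 scale in the mean of the 3 mutants (SE 0.06, adjusted p = 0.00688), and by mutant the change was -0.38 in cac1 (adjusted p = 0.00607), -0.39 in cac2 (adjusted p = 0.0061) and -0.10 in cac3 (adjusted p = 0.463). Without the second wild-type library it was -0.20 (adjusted p = 0.192), and over all alternatives tried the adjusted p of GCN4 ran from 1.06e-05 to 0.192.

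Arginine genes followed in size. ARG1 (YOL058W, chromosome XV, 219146 to 220602, plus strand), which encodes argininosuccinate synthetase, had 49.7 and 53.5 RPKM in cac1, 47.0 and 45.3 RPKM in cac2 and 44.0 and 40.0 RPKM in cac3, against 66.4 and 66.7 RPKM in wild type. All 6 mutant libraries lay below wild type, the cac3 pair lowest. ARG1 changed by -0.52 (SE 0.08, adjusted p = 0.00128), with -0.36 in cac1 (adjusted p = 0.0273), -0.53 in cac2 (adjusted p = 0.00549) and -0.66 in cac3 (adjusted p = 0.00239). ARG4 (YHR018C, chromosome VIII, 139790 to 141454, minus strand) encodes the next enzyme, argininosuccinate lyase, and had 149.8 and 175 RPKM in cac1, 164 and 153 RPKM in cac2 and 154 and 146 RPKM in cac3, against 199 and 201 RPKM in wild type. It fell in each mutant, and the mean change was -0.35 (SE 0.07, adjusted p = 0.00669). The other 2 genes act upstream and did not pass the test: ARG8, the acetylornithine aminotransferase, had a mean level and a change of 81.1 RPKM and -0.19 (SE 0.07), and ARG3, the ornithine carbamoyltransferase with the fewest reads of all the genes, 10.6 RPKM and -0.21 (SE 0.18).

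Among 5 histidine genes 2 fell. HIS4 (YCL030C, chromosome III, 65773 to 68389, minus strand), whose product carries out several steps of the pathway, had 259.9 and 241 RPKM in cac1, 253 and 242 RPKM in cac2 and 198 and 194 RPKM in cac3, against 299 and 282 RPKM in wild type. The cac3 libraries stood below those of the other mutants, which in turn stood below wild type. HIS4 changed by -0.34 (SE 0.05, adjusted p = 0.0013), with -0.21 in cac1 (adjusted p = 0.036), -0.23 in cac2 (adjusted p = 0.0302) and -0.56 in cac3 (adjusted p = 0.000711). HIS1 (YER055C, chromosome V, 264765 to 265909, minus strand), for the enzyme of the first step, had 529 and 518 RPKM in cac1, 559 and 547 RPKM in cac2 and 508 and 548 RPKM in cac3, against 629 and 681 RPKM in wild type, with no overlap between the mutants and wild type. Its change was -0.30 (SE 0.05, adjusted p = 0.00282). The others were close to 0: HIS7, the imidazole glycerol phosphate synthase, at 169.7 RPKM and -0.08 (SE 0.06), HIS2, the histidinol phosphatase, at 55.7 RPKM and -0.04 (SE 0.11), and HIS5, the histidinol-phosphate aminotransferase, at 168 RPKM and 0.11 (SE 0.07). HIS5 was the gene with the highest change of the 43, at 0.22 in cac1 (adjusted p = 0.0802), 0.19 in cac2 (adjusted p = 0.135) and -0.09 in cac3 (adjusted p = 0.567).

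In lysine synthesis 5 of the 7 genes fell. LYS12 (YIL094C, chromosome IX, 186173 to 187709, minus strand), the homoisocitrate dehydrogenase, had 213 and 211 RPKM in cac1, 205 and 193 RPKM in cac2 and 215 and 216 RPKM in cac3, against 242 and 255 RPKM in wild type. It changed by -0.26 (SE 0.05, adjusted p = 0.0089), and the mutant and wild-type libraries did not overlap. LYS21 (YDL131W, chromosome IV, 227313 to 228785, plus strand), one of a pair of homocitrate synthases that start the pathway, had 61.8 and 68.2 RPKM in cac1, 68.0 and 69.5 RPKM in cac2 and 65.6 and 66.4 RPKM in cac3, against 79.0 and 80.0 RPKM in wild type. Its change was -0.25 (SE 0.06, adjusted p = 0.0106), again without overlap. LYS20, the other homocitrate synthase, changed by -0.23 (SE 0.06, adjusted p = 0.0219) at a mean level of 79.8 RPKM. LYS9, a saccharopine dehydrogenase, changed by -0.22 (SE 0.06, adjusted p = 0.0278) at 117 RPKM, and LYS2, the aminoadipate reductase, by -0.21 (SE 0.06, adjusted p = 0.0296) at 90.8 RPKM. LYS2 is also widely used as a strain marker, and the strain numbers differ here. Reads were present on it in every library (lowest 81.9 RPKM), and whether the gene differs between the strains was not tested. The remaining 2 were LYS4, the homoaconitase, at 142 RPKM and 0.05 (SE 0.06), and LYS1, which completes the pathway, at 68.1 RPKM and -0.03 (SE 0.07).

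Of the 9 aromatic genes 1 fell. ARO1 (YDR127W, chromosome IV, 704404 to 709284, plus strand), whose product joins several steps of the shikimate pathway in a single chain, had 157 and 159 RPKM in cac1, 152 and 144 RPKM in cac2 and 151 and 147 RPKM in cac3, against 185 and 179 RPKM in wild type. All mutant libraries were below wild type, and the change was -0.26 (SE 0.04, adjusted p = 0.00239). ARO8 (YGL202W, chromosome VII, 115931 to 117683, plus strand), an aromatic aminotransferase, had 203 and 180.3 RPKM in cac1, 174 and 154 RPKM in cac2 and 181 and 172 RPKM in cac3, against 203 and 197 RPKM in wild type. Its first cac1 library lay above both wild-type libraries, and the change, -0.18 (SE 0.07, adjusted p = 0.0915), did not pass in the mean of the 3 mutants although it did in cac2 (-0.29, adjusted p = 0.0448). The 2 synthases that start the pathway, ARO4 and ARO3, had 378 RPKM and -0.12 (SE 0.05) and 200.02 RPKM and -0.09 (SE 0.07). ARO2, the chorismate synthase, had 264 RPKM and -0.07 (SE 0.06). Of the tryptophan genes, TRP5, the tryptophan synthase, had 184 RPKM and -0.07 (SE 0.06), TRP2, of the anthranilate synthase, 109.9 RPKM and -0.04 (SE 0.06), TRP4, the anthranilate phosphoribosyltransferase, 99.8 RPKM and -0.02 (SE 0.07), and TRP3, which shares the anthranilate synthase with Trp2, 115 RPKM and -0.01 (SE 0.06). None of these passed the test.

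In the branched-chain group 4 of 10 genes fell. BAT2 (YJR148W, chromosome X, 705672 to 706880, plus strand), the cytosolic branched-chain aminotransferase, had 166 and 159 RPKM in cac1, 141 and 140.1 RPKM in cac2 and 157 and 159 RPKM in cac3, against 188 and 184 RPKM in wild type. The cac2 libraries were lowest, and the change was -0.27 (SE 0.06, adjusted p = 0.00684). ILV2 (YMR108W, chromosome XIII, 483841 to 486305, plus strand), the catalytic subunit of acetolactate synthase, had 275 and 274 RPKM in cac1, 265 and 268 RPKM in cac2 and 299 and 295 RPKM in cac3, against 341 and 333 RPKM in wild type. The libraries did not overlap between mutants and wild type, and it changed by -0.27 (SE 0.04, adjusted p = 0.0015). LEU9, an isopropylmalate synthase, changed by -0.24 (SE 0.06, adjusted p = 0.0142) at 209 RPKM, and ILV1, the threonine deaminase that opens isoleucine synthesis, by -0.19 (SE 0.05, adjusted p = 0.0253) at 226 RPKM. The genes with the most reads of the group were close to 0: ILV5, the reductoisomerase, had 1669 RPKM and -0.01 (SE 0.05), ILV3, the dihydroxyacid dehydratase, 824 RPKM and -0.07 (SE 0.04), BAT1, the mitochondrial aminotransferase, 541 RPKM and -0.06 (SE 0.05), and LEU1, the isopropylmalate isomerase, 509.9 RPKM and 0.03 (SE 0.04). ILV6, the regulatory subunit of acetolactate synthase, had 340.3 RPKM and -0.08 (SE 0.06), and LEU4, the main isopropylmalate synthase, 263 RPKM and 0.03 (SE 0.07).

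Of the 6 aspartate-family genes 3 fell, and all 3 did so in each mutant. ASN1 (YPR145W, chromosome XVI, 822483 to 824451, plus strand), an asparagine synthetase, had 394 and 372 RPKM in cac1, 317 and 342 RPKM in cac2 and 328 and 351 RPKM in cac3, against 434 and 454 RPKM in wild type. No mutant library reached the wild-type range, and the change was -0.34 (SE 0.05, adjusted p = 0.00129). HOM3 (YER052C, chromosome V, 256213 to 258093, minus strand), the aspartate kinase that opens the route to threonine and methionine, had 189.6 and 182 RPKM in cac1, 196 and 178 RPKM in cac2 and 191 and 190.1 RPKM in cac3, against 239 and 225 RPKM in wild type, also without overlap. It changed by -0.30 (SE 0.06, adjusted p = 0.00471). HOM2, the aspartate semialdehyde dehydrogenase of the step after it, changed by -0.30 (SE 0.05, adjusted p = 0.00155) at 464 RPKM. The later threonine genes did not pass, with 255 RPKM and -0.03 (SE 0.06) for THR1, the homoserine kinase, and 240.4 RPKM and -0.00 (SE 0.07) for THR4, the threonine synthase. ASN2, the second asparagine synthetase, had 238 RPKM and -0.08 (SE 0.05).

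**Figure D3:**
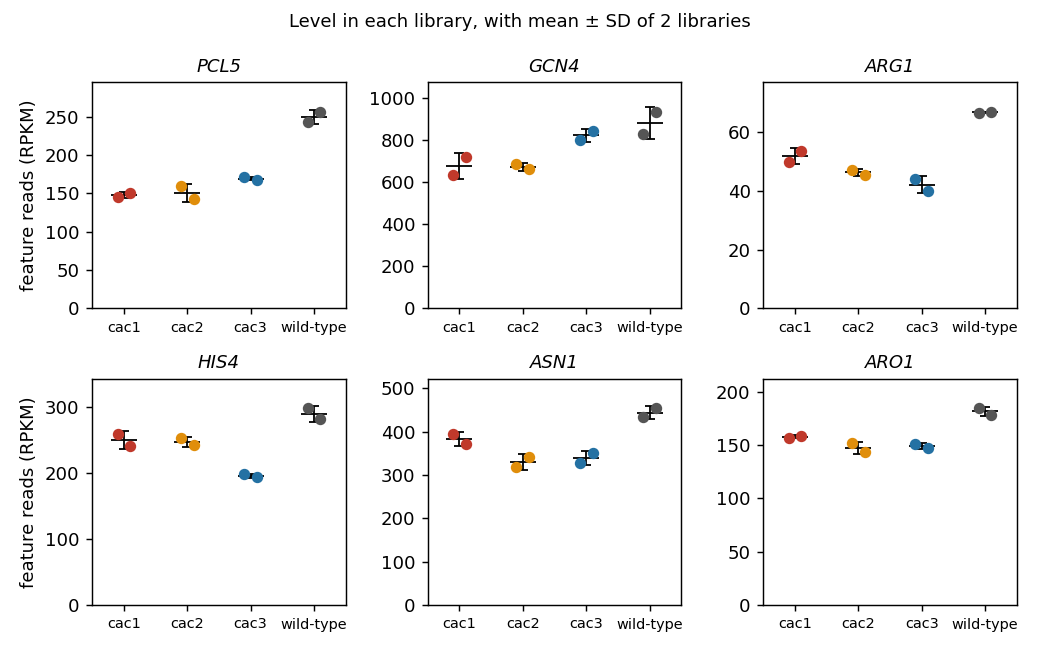
Feature reads in RPKM (vertical axes, from 0) on PCL5, GCN4, ARG1, HIS4, ASN1 and ARO1 in cac1, cac2, cac3 and wild type (horizontal); points are libraries, bars the mean ± SD of 2. Wild type is highest in all 6 panels, the cac3 points of GCN4 (800.4 and 844) overlap the wild-type points (828 and 934), and those of HIS4 (198 and 194) are the lowest of that gene.

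Isozyme pairs gave a further view of how the genes varied. ASN1 fell and ASN2 did not pass, BAT2 fell and BAT1 did not pass, and LEU9 fell and LEU4 did not pass; LYS20 and LYS21 both fell, and neither ARO3 nor ARO4 passed. The difference inside a pair was not tested. No source used here says how reads that match both copies of a pair were counted, and the values of these 10 genes are less certain than the others for that reason.

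Next, the 3 mutants were taken one at a time. They share the same 2 wild-type libraries, so their changes are given side by side. In cac1 15 of the 43 genes fell and none rose, beside 8.26% of ORF-Ts lower and 9.57% higher. In cac2 15 fell and none rose, beside 6.32% and 8.35%. In cac3 11 fell and none rose, beside 1.84% and 3.48%. On unscaled library totals, which moved the ORF-T median to 0.08, 0.06 and 0.04 for cac1, cac2 and cac3, cac1 had 6 falls and 1 rise, cac2 had 11 and 1, and cac3 had 9 and 0. With the replicate number as a block HIS5 rose in cac1 (0.22, edgeR adjusted p = 0.0247) and in cac2 (0.20, adjusted p = 0.0461), and 17 genes fell in cac3. At an unadjusted p below 0.05 each mutant had 1 rise, with 18 falls in cac1, 22 in cac2 and 18 in cac3, and DESeq2 called 0 rises. The median change was -0.09 in cac1, -0.18 in cac2 and -0.14 in cac3. Changes were below 0 in all 3 mutants for 31 of the 43 genes, and 9 genes fell in all 3: PCL5, ARG1, ARG4, HIS1, HIS4, ARO1, ASN1, HOM2 and HOM3. Neither count was made over all ORF-Ts, and the 3 changes share their wild-type libraries. They therefore cannot be read as particular to these genes. The counts of falls by mutant moved with single libraries. In cac1 the count of falls was 9 and 7 without cac1 replicate 1 and 2, 9 without cac3 replicate 2, and 6 and 2 without wild-type replicate 1 and 2. In cac2 it was 8 without cac2 replicate 2 and 6 without wild-type replicate 2. In cac3 it was 4 without either cac3 replicate, and 6 and 1 without wild-type replicate 1 and 2.

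**Figure D4:**
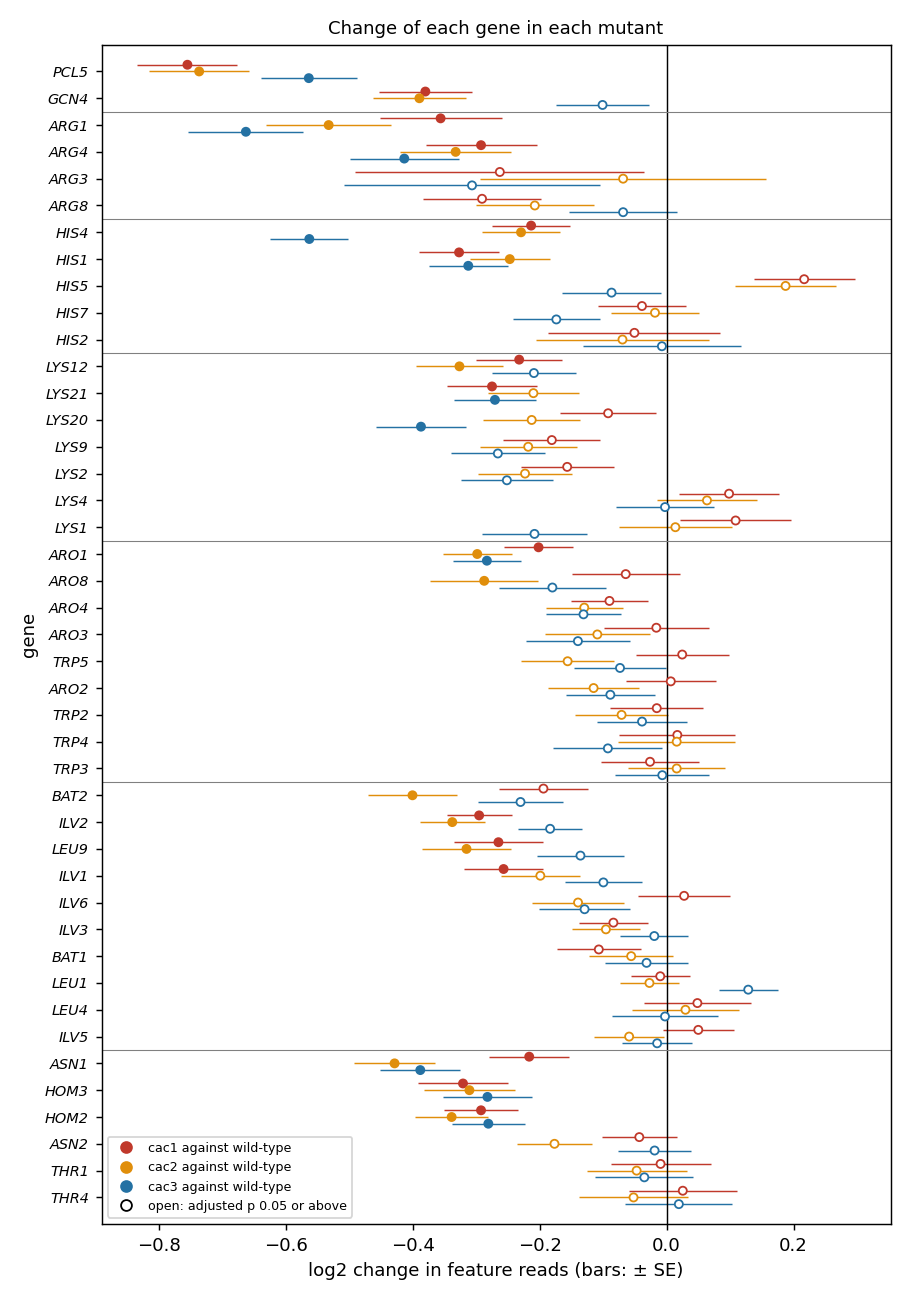
Log2 change of each of the 43 genes (rows, by pathway) in cac1, cac2 and cac3 against wild type (horizontal axis, bars ± SE); filled symbols fell at an adjusted p below 0.05. PCL5 lies between -0.75 and -0.56 in the 3 mutants, GCN4 at -0.38 and -0.39 in cac1 and cac2 and -0.10 in cac3, and HIS4 at -0.21 and -0.23 in cac1 and cac2 and -0.56 in cac3.

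Tested against each other without a replicate block, the mutants differed in HIS4. In cac1 against cac3 HIS4 was higher by 0.35 (SE 0.06, adjusted p = 0.0278), the only one of the 43 genes past the threshold, beside 0.793% of ORF-Ts lower and 0.619% higher. In cac2 against cac3 it was again HIS4, at 0.33 (SE 0.06, adjusted p = 0.0419), beside 0.348% lower and 0.367% higher. For GCN4, which fell in cac1 and cac2, the difference from cac3 did not pass without the block: it was -0.28 (SE 0.07, adjusted p = 0.0992) for cac1 and -0.29 (SE 0.07, adjusted p = 0.173) for cac2. LYS1, ARG1, HIS5 and LYS20 had the next largest differences after HIS4 in cac1 against cac3, at 0.32, 0.31, 0.30 and 0.29 on the log2 scale (adjusted p = 0.102, 0.149, 0.0929 and 0.0818). Between cac1 and cac2 no gene passed the edgeR test, beside 0.0193% of ORF-Ts lower and 0.058% higher; 6 genes had an unadjusted p below 0.05, and DESeq2 called 0. With the replicate number as a block 6 genes passed in cac1 against cac3 (HIS4, LYS20, HIS5, ARG1 and LYS1 higher, GCN4 lower) and 3 in cac2 against cac3 (HIS4 and HIS5 higher, GCN4 lower). The block raised the calls over all ORF-Ts too. In cac1 against cac3 it gave 212 ORF-Ts higher and 201 lower, against 32 and 41 without it. In cac2 against cac3 it gave 81 and 50, against 19 and 18. GCN4 under the block was at -0.28 (SE 0.06, edgeR adjusted p = 0.00126) for cac1 and -0.29 (SE 0.06, adjusted p = 0.00168) for cac2 against cac3. The HIS4 call of the fit without the block was lost on single libraries. For cac1 against cac3 no gene passed without cac1 replicate 1, without either cac3 replicate or without either wild-type replicate, and 2 passed without cac1 replicate 2. For cac2 against cac3 no gene passed when any one of the cac2, cac3 or wild-type libraries was left out.

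The tables also give reads in a window beside each gene's start, from 500 bp upstream to 100 bp downstream, on what was inferred to be the opposite strand, so that divergent transcription from the promoter is counted there. The window is cut short where another gene is close: 18 of the 43 windows had the full 600 bp and the shortest, at PCL5 and ARG3, had 116 bp. At both genes the nearest annotated feature upstream lay 16 bp away, so most of the window fell inside the gene's own first 100 bp. Reads there need not come from divergent transcription at the promoter. In the mean of the 3 mutants 15 windows fell and 4 rose, beside 12.2% of ORF-T windows lower and 14.2% higher. The median change of the 43 windows was -0.06, against 0.02 over ORF-T windows. That median was -0.14 without cac1 replicate 1, -0.17 without cac2 replicate 1, -0.19 without cac3 replicate 1, -0.09 or -0.25 without the first or second wild-type library, and it turned to 0.13 on unscaled library totals, where the ORF-T median was 0.22. By mutant, 11 fell and 4 rose in cac1 (10.2% and 12.6% of ORF-T windows), 13 fell and 1 rose in cac2 (8.55% and 10.6%), and 5 fell and 0 rose in cac3 (1.49% and 4.24%), where 6 windows rose at an unadjusted p below 0.05 and DESeq2 called 0 rises. On unscaled totals, with ORF-T window medians of 0.26, 0.25 and 0.15, falls and rises were equal in number, with 6 of each for cac1, 5 of each for cac2, 3 of each for cac3. Single libraries moved these counts too. In cac1 9 windows passed without cac1 replicate 2 and 2 without wild-type replicate 2, and in cac2 3 passed without wild-type replicate 2. In cac3 8 passed without cac1 replicate 1, 0 and 1 without cac3 replicate 1 and 2, and 3 and 0 without wild-type replicate 1 and 2. Of the 19 called windows 9 stood beside a called gene, close to the share among all 43 windows, of which 19 did.

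Among the called windows, those with more reads fell and those with few rose. Levels of windows are given as RPM, scaled to the total of window reads of the library. ASN2 had 97.6 and 143 RPM in cac1, 118 and 159.9 RPM in cac2 and 177 and 211 RPM in cac3, against 245 and 291 RPM in wild type, a change of -0.86 (SE 0.14, adjusted p = 0.00137), and no mutant library reached wild type. ARG3 changed by -0.77 (SE 0.17, adjusted p = 0.00681), LEU9 by -0.75 (SE 0.11, adjusted p = 0.000799), ILV3 by -0.68 (SE 0.14, adjusted p = 0.00518), ARO1 by -0.61 (SE 0.10, adjusted p = 0.00158) and BAT1 by -0.59 (SE 0.09, adjusted p = 0.00107). Of the rises, the PCL5 window had 7 and 38 reads (cac1), 8 and 27 (cac2) and 38 and 32 (cac3), against 3 and 14 (wild type). That is a change of 1.49 (SE 0.39, adjusted p = 0.0149), opposite in sign to the change of the gene itself. Most of this window lay inside the start of PCL5, so the rise cannot be placed in the promoter. The ILV1 window had 7 and 20 reads (cac1), 4 and 6 (cac2) and 18 and 18 (cac3), against 2 and 4 (wild type), and the change was 1.79 (SE 0.53, adjusted p = 0.024). HIS2 changed by 1.54 (SE 0.36, adjusted p = 0.00834) and LYS20 by 1.19 (SE 0.34, adjusted p = 0.0215), also on windows with at most 14 reads in a wild-type library. The same order held over all ORF-Ts: in the lowest of 4 bins of window level (1292 windows) the median change was 0.82 and 25.0% rose, and in the highest (1292 windows) it was -0.22 and 32.7% fell. Of the 10 windows of the genes in the lowest bin 4 rose and 0 fell, with a median of 1.18, and of the 16 in the highest 11 fell and 0 rose, with a median of -0.44. DESeq2 called 9 falls and 0 rises, and without the second wild-type library 2 windows fell and 0 rose. With library totals alone as the scale 5 windows rose and 9 fell.

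**Figure D5:**
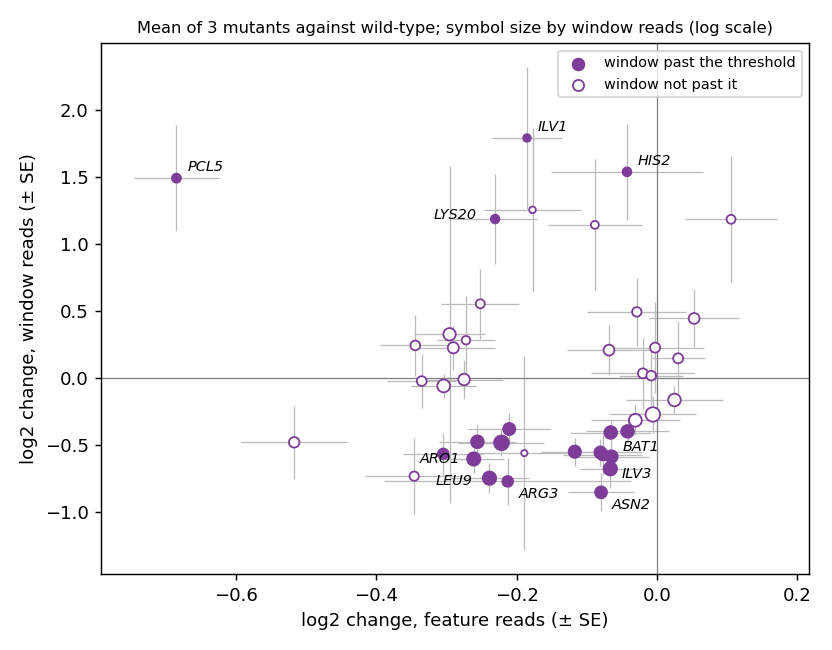
Log2 change of window reads (vertical axis) against that of feature reads (horizontal) in the mean of the 3 mutants, both ± SE, for the 43 genes; filled symbols are windows past the threshold, symbol size follows window reads, and the 10 largest called window changes are named. Small filled symbols (ILV1, HIS2, PCL5 and LYS20, 1.19 to 1.79) lie above 0 and large ones below, down to -0.86 for ASN2.

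Annotated noncoding transcripts that start on the opposite strand within 500 bp upstream of a gene could be read on their own. Their reads overlap with those of the window only where the window reaches them. Some started beyond a window that was cut short, as at ARG3, whose window had 116 bp while its partner started 428 bp upstream. Of the 13 cryptic unstable or stable unannotated transcripts (CUTs and SUTs) starting beside the genes within 500 bp 6 fell and 2 rose, where 9.99% of the 1771 CUTs and SUTs tested fell and 14.9% rose. Upstream of ARG3, CUT684, a cryptic unstable transcript, had 112 and 118 RPKM in cac1, 129.8 and 127 RPKM in cac2 and 134 and 149 RPKM in cac3, against 211 and 226 RPKM in wild type. It changed by -0.78 (SE 0.08, adjusted p = 0.000149), with every mutant library lower, while ARG3 did not pass. CUT617 beside ASN2 changed by -0.78 (SE 0.13, adjusted p = 0.00254), SUT779, a stable unannotated transcript beside LEU9, by -0.60 (SE 0.07, adjusted p = 0.000388), CUT042 beside ILV6 by -0.59 (SE 0.08, adjusted p = 0.000846), CUT507 beside ARO1 by -0.41 (SE 0.07, adjusted p = 0.00224) and CUT273 beside ILV5 by -0.29 (SE 0.08, adjusted p = 0.0224). The small nucleolar RNA gene SNR49 beside LYS9 changed by -0.42 (SE 0.06, adjusted p = 0.00129). The 5 that did not pass lay between -0.29 (CUT188 beside LYS12) and 0.31 (SUT197 beside LYS1), with CUT510, SUT018 and CUT041 between them. A pair of partners rose: SUT650 beside BAT2, by 0.29 (SE 0.07, adjusted p = 0.0147), and CUT350 beside LYS9, by 0.33 (SE 0.08, adjusted p = 0.0143). BAT2 and LYS9 themselves fell, so each of these genes moved in the opposite direction to the transcript that rose beside it. ARO1 and CUT507 fell together, as did LEU9 and SUT779, and LYS9 and SNR49.

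The balance between gene and window was tested in a model of both kinds of count. It rose for 7 genes (ASN2, LEU9, ILV3, BAT1, HIS7, ILV6 and TRP2) and fell for 7 (PCL5, HIS2, ILV1, LYS20, LYS21, ARO8 and ARO3), beside 7.45% of ORF-Ts higher and 12.8% lower. On unscaled totals, which moved the ORF-T median of the balance to -0.14, it rose for 1 gene and fell for 8. The split of the main fit followed the window level. The 7 genes with a lower balance had mean window levels of 8.49 (ARO8) to 27.7 RPM (LYS21), and the 7 with a higher one 137 (HIS7) to 619 RPM (LEU9). All of the former lay in the lowest bin of window level, where the median window change over all ORF-Ts was 0.82. The part of the window level in these calls was not tested. For PCL5 the summed feature reads were 19.4 times the window reads in cac1, 22.3 in cac2 and 28.5 in cac3, against 119 in wild type. The log2 change of that balance was -2.21 (SE 0.38, adjusted p = 0.00367), on a window that lay mostly inside the gene's own start. Without the second wild-type library no balance passed, with 0 ORF-Ts higher and 5 lower; without cac1 replicate 2 or cac2 replicate 1 there were 5 rises and 4 falls each, without cac3 replicate 1 or 2 there were 1 and 4 or 3 and 5, and without wild-type replicate 1 there were 1 and 7.

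Other genes of the same pathways and of the control of Gcn4 were counted from a list of 54, of which 48 were found. Of these 7 fell and 1 rose in the mean of the 3 mutants, beside 9.11% of ORF-Ts lower and 10.6% higher. Their median change was -0.04, against -0.00 over ORF-Ts. GLN1, the glutamine synthetase, changed by -0.46 (SE 0.04, adjusted p = 8.6e-05), the most of those that fell. ARG7, listed as ECM40, an acetyltransferase of ornithine synthesis, changed by -0.21 (SE 0.06, adjusted p = 0.0259). ARO9, an aromatic aminotransferase, changed by -0.25 (SE 0.08, adjusted p = 0.0391), and CYS4, the cystathionine beta-synthase, by -0.16 (SE 0.04, adjusted p = 0.0302). GGC1, a mitochondrial carrier of guanine nucleotides listed as a Gcn4 target, changed by -0.30 (SE 0.07, adjusted p = 0.0136). Among 9 genes that activate GCN4 translation or act in initiation, GCN3, a subunit of the exchange factor eIF2B, changed by -0.22 (SE 0.06, adjusted p = 0.0255) and the other 8 did not pass, GCN2 among them at 0.02 (SE 0.09, adjusted p = 0.883). None of the 4 turnover genes found and none of the 8 pathway regulators passed; PHO85, the partner of Pcl5, stood at -0.11 (SE 0.08, adjusted p = 0.351). ADE4, which opens purine synthesis and was listed as a Gcn4 target like GGC1, rose by 0.31 (SE 0.06, adjusted p = 0.00759). The 4 genes found of that group of targets had a median change of 0.15, with 1 rise and 1 fall.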

How the data were processed

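NET-seq reads of 8 libraries had been tabulated for 7272 features. Counts of reads over the span of each feature are raw and whole, as deposited by the authors. In the estimated counts deposited for the window beside the 5′ end, the authors wrote 0.5 for an empty window, which was read here as 0. RPKM values, the ratio of feature to window reads and, for mutants, a natural log of ratios were also deposited by the authors and support no result. The labels cite a published NET-seq protocol; no source used here gives the aligner, genome build, read filters or the treatment of strand and of reads that match several places. The strand of the window was inferred from annotated transcripts.

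The 43 genes and all lists were chosen with earlier results of these data known. Features that reached an RPKM of 1 in 2 libraries (7271, all 43 genes included) were tested with edgeR 4.0.16 in R 4.3.3, quasi-likelihood, with 1 coefficient per group, no block and all 8 libraries. Libraries were scaled by TMM over ORF-Ts (0.972 to 1.02) and p was adjusted by Benjamini-Hochberg over all features; the biological coefficient of variation was 8.13%. The 5496 windows with at least 10 reads over the 8 libraries had their own fit (13.3%), and the balance of gene and window was an interaction term. Depths of 1880299 to 7705151 feature reads set the precision, and windows with few reads are the least certain. The fit was tested on simulated data with a common dispersion and no replicate effect. Planted log2 changes of -0.5 and 0.5 were called for 38 and 40 of 50 ORF-Ts. Changes of -1 and 1 were called for all 50, and 15 of 7071 features without a change were called. Smaller changes, the size of most falls reported here, were not simulated. Values in every library are given for GCN4, PCL5 and the 2 genes of each pathway with the largest absolute change, windows for the 10 largest changes past the threshold, and genes of the wider list where they passed. Alternatives were unscaled library totals, TMM over all features, DESeq2 1.42.0 size factors and Wald test, no filter and stricter filters (RPKM of 10, 50 window reads), the replicate number as a block, fits of only 2 groups, and each library left out. Sequences and the promoter motif of Gcn4 were not analysed here. Names outside the tables (ARG7 for ECM40) were matched through the RefSeq gene table of assembly R64. One gene of the wider list that passed the test is not reported here.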

Additional observations from a re-analysis of the deposited data

Results flagged for a closer look

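HIS4 differed between mutants by the direct test. The difference was 0.35 on the log2 scale in cac1 against cac3 and 0.33 in cac2 against cac3 (edgeR adjusted p = 0.0278 and 0.0419). HIS4 had 259.9 and 241 RPKM in cac1 and 253 and 242 RPKM in cac2, against 198 and 194 RPKM in cac3. The call was lost in both pairs when either cac3 library was left out.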

How the results depend on the processing

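All 19 falls kept their call with TMM over all features, with DESeq2 size factors, without a filter and with the replicate block; 15 kept it on unscaled totals and 14 by the DESeq2 Wald test. ARG3 left the fit under the stricter filter. A lone library left in a group was assumed to vary like the other groups, and the causes of the moves below were not tested.

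With each library left out in turn, the count of called genes ran from 5 to 20 in the mean of the 3 mutants, 2 to 16 in cac1, 6 to 16 in cac2, 1 to 11 in cac3, 0 to 2 in cac1 against cac3 and 0 to 1 in cac2 against cac3. Called windows ran from 2 to 21 in the mean, 2 to 16 in cac1, 3 to 16 in cac2 and 0 to 8 in cac3, called balances from 0 to 11, and the median change of the 43 genes from -0.17 to -0.12. It was -0.12 on unscaled totals and -0.15 under the stricter filter. The median change of the 43 windows ran from -0.2461 to -0.0575 and was 0.1302 on unscaled totals.

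On unscaled totals, where the ORF-T median is 0.06, 7 genes were called in cac1 and 9 balances in the mean. Of the feature changes near 0, these turned positive there: THR4 (0.0582), TRP4 (0.0415), TRP2 (0.0194), THR1 (0.0294), HIS2 (0.0206), LYS1 (0.0354), TRP3 (0.0551) and ILV5 (0.0514). None of them was a call. With a library left out the change ran from -0.11 to 0.13 for THR4, -0.21 to 0.10 for TRP4, -0.10 to 0.0343 for TRP2, -0.0606 to 0.0061 for THR1, -0.15 to 0.0323 for BAT1, -0.16 to 0.20 for HIS2, -0.0914 to 0.11 for LYS1, -0.0374 to 0.0375 for TRP3, -0.0391 to 0.0215 for ILV5 and -0.0147 to 0.0645 for LEU4.

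The DESeq2 Wald test called 8 genes in cac1, 2 in cac1 against cac3 and 2 in cac2 against cac3, and 9, 7, 7 and 1 windows in the mean, cac1, cac2 and cac3. With only the libraries of both groups 9 genes were called in cac1. The HIS4 call in cac2 against cac3 was lost (0 genes) with TMM over all features and with DESeq2 size factors.

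Same-numbered libraries deviated together (correlations 0.376 to 0.578 over 5064 ORF-Ts), but only 2 numbers exist, so the pairing is a hint from the data. With the replicate block 21 genes were called in the mean of the 3 mutants, 17 in cac3, 6 in cac1 against cac3 and 3 in cac2 against cac3, and 23 windows in cac2 and 17 in cac3. Calls over all ORF-Ts rose with the block too, in the mean from 549 higher and 471 lower to 768 and 721. For ORF-T windows they went from 547 and 442 to 834 and 777 in cac2, and from 219 and 77 to 520 and 387 in cac3.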

Other observations

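Annotated antisense CUTs or SUTs with most of their own length over a gene were found for 5 of the genes. Smaller overlaps and other kinds of antisense feature were left out. SUT768 covers 90.1% of ARG1, the enzyme gene with the largest fall, and had 71.2 and 67.5 RPKM in cac1, 52.1 and 71.6 RPKM in cac2 and 57.8 and 67.7 RPKM in cac3, against 60.3 and 57.4 RPKM in wild type. Its change was 0.15 (SE 0.11, adjusted p = 0.361), so no opposite change passed the test. The antisense transcripts of LYS20, HIS7, ILV5 and LEU4 (CUT475, CUT037, CUT272 and SUT332) changed by -0.13 (SE 0.10, adjusted p = 0.374), 0.09 (SE 0.11, adjusted p = 0.633), -0.17 (SE 0.16, adjusted p = 0.495) and -0.02 (SE 0.21, adjusted p = 0.969). The overlaps and the counting, whose use of strand is not stated, limit what these values can show.

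The window of HIS1 followed the replicate number rather than the genotype, a pattern chosen after its values were seen. It had 373 and 32 reads (cac1), 263 and 20 (cac2) and 737 and 30 (cac3), against 212 and 34 (wild type). The first library of each group held more reads than the second although the second was deeper in 3 of the 4 groups. Reads on HIS1 itself did not follow this order. The cause was not tested.

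LEU2 had 9 and 8 reads (cac1), 6 and 4 (cac2) and 15 and 6 (cac3), against 4 and 1 (wild type), where a few reads a library leave no usable change. Genes of the wider list that were near the threshold but did not pass include ARG80, a regulator of arginine genes, at 0.26 (SE 0.09, adjusted p = 0.063), and GDH1, a glutamate dehydrogenase, at -0.17 (SE 0.06, adjusted p = 0.0642); both were chosen after their values were seen.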
